A study of Mus musculus with 6 samples.

Results

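The genes described here encode 9 proteins that carry amino acids across the proximal tubule epithelium or that the carriers need to reach the membrane: Slc3a1, Slc3a2, Slc7a7, Slc7a8, Slc7a9, Slc6a18, Slc6a19, Slc1a1 and Tmem27. They were chosen by name from the 24421 genes of the deposited count table. All 9 were found, and all 9 passed the expression filter that kept 13977 genes. Kidney cortex RNA was sequenced in 6 libraries, 3 from wild type mice and 3 from mice in which proximal tubular epithelial cells express I-PpoI (called PT-I-PpoI). The enzyme, a homing endonuclease, makes double-strand breaks in DNA. The comparison asks how these transporters differ in cortex when proximal tubule cells carry that enzyme. The promoter that drives I-PpoI and the strain, age and sex of the mice are not given in the sources used here. Nothing in the labels states that the 3 samples of a group are 3 mice. A p-value here therefore measures the spread between samples, which may be technical.

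The kidney filters amino acids freely and takes nearly all of them back in the proximal tubule. Carriers in the apical brush border bring them in from the filtrate, and carriers in the basolateral membrane pass them on to the blood. Several carriers are heteromers in which a light subunit of the Slc7 family forms the pore and a heavy subunit of the Slc3 family brings it to the membrane. The apical Slc6 carriers of neutral amino acids instead need collectrin, the product of Tmem27. Loss of the human counterparts of Slc3a1 or Slc7a9 causes cystinuria, of Slc7a7 lysinuric protein intolerance, and of Slc6a19 Hartnup disorder.

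Library totals ranged from 13582540 to 20861021 counted read pairs, and the 9 genes took 0.379 to 0.440% of them. The names of 3 libraries in the count table end in a hyphen and a number (wild type replicates 2 and 3 and PT-I-PpoI replicate 3), and those of the other 3 lack the hyphen (wild type replicate 1 and PT-I-PpoI replicates 1 and 2). No label says what the hyphen marks. The forms lay apart on the first principal component (43.1% of the variance), on which PT-I-PpoI replicate 3 (11.8) lay nearer to wild type replicates 2 and 3 (20.4 and 21.5) than to PT-I-PpoI replicates 1 and 2 (-23.1 and -30.2). Values within each form, from 1 PT-I-PpoI and 2 wild type libraries with a hyphen and 2 and 1 without, are therefore given for the transporter genes, their ratios and the list medians. As a check of the tissue, all 26 marker genes of the convoluted proximal tubule and all 17 of its straight segment passed the filter, and the convoluted list summed to between 21321 and 31559 CPM (counts per 1000000 of the adjusted library total) over the 6 libraries.

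Promoters are shown for the pair of transporter genes whose levels over the libraries were most alike. Among the 36 pairs of the 9 genes, Slc3a1 and Tmem27 had the smallest root mean square difference of centred log2 CPM over the 6 libraries, at 0.05 on the log2 scale. Both windows run from 250 bases before to 50 bases after the gene's start and are given 5′ to 3′ on the gene's strand, from RefSeq on GRCm38.p6 (mm10). Capitals mark the HNF1 half-site GTTAAT (or ATTAAC, its reverse complement) and the HNF4 site CAAAGTCCA, which were searched on both strands. HNF1 and HNF4 factors are known regulators of proximal tubule genes.

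Slc3a1, chr17:85028097-85028396, plus strand: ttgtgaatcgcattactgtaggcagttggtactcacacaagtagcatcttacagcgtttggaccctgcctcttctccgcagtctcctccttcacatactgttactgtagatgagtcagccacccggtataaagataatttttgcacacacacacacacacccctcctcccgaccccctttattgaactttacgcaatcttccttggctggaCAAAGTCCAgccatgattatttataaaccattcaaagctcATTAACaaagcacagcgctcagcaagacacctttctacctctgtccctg

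Tmem27, named Cltrn in that table, chrX:164089937-164090236, plus strand: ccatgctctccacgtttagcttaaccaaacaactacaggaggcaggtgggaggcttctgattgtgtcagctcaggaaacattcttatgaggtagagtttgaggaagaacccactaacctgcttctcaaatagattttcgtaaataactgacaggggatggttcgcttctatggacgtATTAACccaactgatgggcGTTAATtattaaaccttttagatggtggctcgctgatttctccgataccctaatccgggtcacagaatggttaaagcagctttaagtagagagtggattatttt

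The Slc3a1 window holds the HNF4 letters 39 bases before the start and an HNF1 half-site that begins at base 2 of the transcript. The Tmem27 window holds 2 HNF1 half-sites, which begin 73 and 54 bases before the start. Of the 8 transporter genes with a window in the table, 3 (Slc3a1, Slc7a7 and Tmem27) have a window with GTTAAT, as do 8.24% of all 27025 genes there. For CAAAGTCCA the count was 1 of 8 (Slc3a1), against 0.555% of all genes. The core of the ATF4 composite element, TGATGNAA, was found in windows of 1 of 8 (Slc7a7), against 4.51% of all genes. The 8 genes have 14 windows, and all 27025 genes have 32851, so a gene with several windows can match in any of them. Slc7a7 has several, and its GTTAAT lies in one that does not begin at its start in the count table. A match describes these letters only and was not tested for binding.

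None of the 9 genes passed edgeR's quasi-likelihood test, in which 19 of 13977 genes (0.136%) were called higher and 0 (0%) lower after Benjamini-Hochberg adjustment. DESeq2 called none of the 9 either. Without adjustment, 2 of the 9 (Slc6a19 and Slc7a9) were lower at p under 0.05 and 0 were higher, against 5.61% and 6.42% of all tested genes. The fold changes of 8 of the 9 lay below 0, with a median log2 fold change of -0.18, where the median over all tested genes was 0.00 and 49.9% lay below 0. Within libraries without a hyphen the median of the 9 was -0.21, with 8 below 0, but within those with a hyphen it was -0.016, with 5 below 0 and 4 (Slc3a2, Slc7a8, Slc6a18 and Tmem27) above. Slc6a19 had the most negative value, at -0.50, and Slc6a18 was the one gene above 0, at 0.08. In bulk cortex, fewer proximal tubule cells, a larger share of other nephron segments in the sample and less RNA per cell cannot be told apart.

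**Figure D1:**
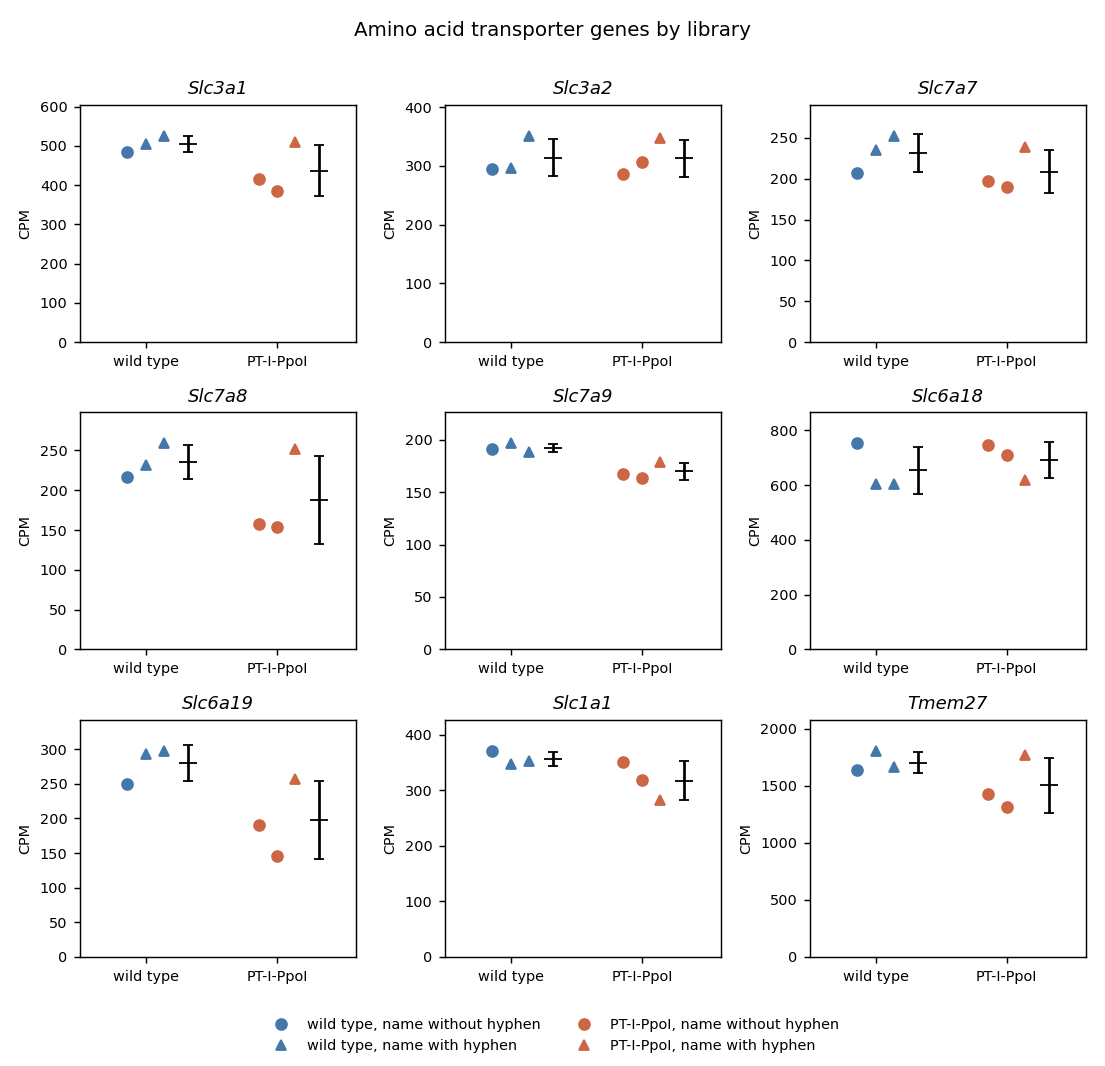
Levels of the 9 transporter genes in CPM (vertical axes, each from 0) in each library of wild type and PT-I-PpoI cortex; circles are libraries whose names lack a hyphen, triangles those with one, and the black bar is the mean with SD (n = 3). For Slc7a9 alone the groups do not overlap (PT-I-PpoI from 163 to 179 CPM, wild type from 188 to 196 CPM), and for 7 of the 9 genes, all but Slc6a18 and Slc1a1, the triangle of PT-I-PpoI lies above both of its circles.

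Slc6a19 (chromosome 13, 73681157 to 73700695, mm10, minus strand) encodes B0AT1, the main apical carrier of neutral amino acids in the early proximal tubule. It was at 190.1, 146 and 257 CPM in PT-I-PpoI replicates 1 to 3 and at 249.6, 293 and 298 CPM in wild type replicates 1 to 3. The groups overlapped only through PT-I-PpoI replicate 3, which lay above wild type replicate 1. The means were 198 ± 55.8 against 280.1 ± 26.5 CPM (SD, n = 3 each) and the fitted log2 difference -0.50 ± 0.18 (SE; 95% interval -0.92 to -0.08; edgeR adjusted p = 0.358). Within libraries without a hyphen the log2 difference was -0.58, and within those with one it was -0.20.

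Slc6a18 (chromosome 13, 73661750 to 73678023, minus strand) encodes B0AT3, an apical carrier of glycine and alanine in later parts of the proximal tubule. The gene lies 3133 bases from Slc6a19 on the same strand. Its levels were 748, 710.0 and 620.1 CPM in PT-I-PpoI and 753, 604 and 605 CPM in wild type, so the groups overlapped over nearly their whole range. PT-I-PpoI differed from wild type by 0.08 ± 0.12 on the log2 scale (95% interval -0.19 to 0.36; edgeR adjusted p = 0.798), at -0.05 without a hyphen and 0.04 with one. All 3 libraries with a hyphen lay below all 3 without one. Thus the neighbouring Slc6a18 and Slc6a19 stood in opposite order between the name forms. Per length, Slc6a19 had 45.9, 37.2 and 74.9 reads for every 100 of Slc6a18 in PT-I-PpoI and 59.9, 87.6 and 88.8 in wild type, an overlapping ratio that was chosen after its values were seen.

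Tmem27 (chromosome X, 164090187 to 164118859, plus strand) encodes collectrin, the accessory protein that brings Slc6a19 and Slc6a18 to the brush border. It was at 1429, 1309.6 and 1773 CPM in PT-I-PpoI and 1638, 1806 and 1662 CPM in wild type. PT-I-PpoI replicate 3 lay among the wild type libraries, and the other two lay below them. The log2 fold change was -0.18 ± 0.13 (95% interval -0.47 to 0.11; edgeR adjusted p = 0.581), or -0.26 without a hyphen and 0.03 with one.

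Slc3a1 (chromosome 17, 85028347 to 85064241, plus strand) encodes rBAT, the heavy subunit of the apical system for cystine and dibasic amino acids. Its levels were 415, 385 and 509.5 CPM in PT-I-PpoI against 484, 505 and 525 CPM in wild type. Again only PT-I-PpoI replicate 3 reached the wild type range. The log2 fold change was -0.21 ± 0.12 (95% interval -0.47 to 0.05; edgeR adjusted p = 0.481), at -0.28 and -0.02 within the forms. The exons of Slc3a1 overlap those of Prepl on the other strand, and the counting used no strand.

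Slc7a9 (chromosome 7, 35449092 to 35466034, plus strand) encodes b0,+AT, the light subunit that pairs with rBAT. It was at 167, 163 and 179 CPM in PT-I-PpoI and 191, 196 and 188 CPM in wild type. Every PT-I-PpoI library lay below every wild type library, which held for 1 of the 9 genes and for 7.74% of all tested genes. No gene of the 9 was higher in every PT-I-PpoI library, against 9.23% of tested genes. The means were 169.8 ± 8.07 against 192 ± 4.01 CPM (SD, n = 3 each). The log2 fold change of -0.18 ± 0.08 did not pass (95% interval -0.35 to -0.0058; edgeR adjusted p = 0.404), and was -0.21 and -0.11 within the forms. The spread between libraries was the smallest of the 9 genes in both groups, with a coefficient of variation of 2.09% in wild type and 4.75% in PT-I-PpoI.

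Slc1a1 (chromosome 19, 28835166 to 28913960, plus strand) encodes EAAT3, the apical carrier of glutamate and aspartate. Levels were 351, 319 and 282 CPM in PT-I-PpoI and 371, 347 and 352 CPM in wild type. The groups overlapped through PT-I-PpoI replicate 1, and here PT-I-PpoI replicate 3 was the lowest library. On the log2 scale the difference was -0.17 ± 0.10 (95% interval -0.39 to 0.06; edgeR adjusted p = 0.505), or -0.15 without a hyphen and -0.31 with one.

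Of the basolateral subunits, Slc7a8 (chromosome 14, 54722215 to 54781886, minus strand) encodes LAT2, an exchanger of neutral amino acids. It was at 158, 153 and 251 CPM in PT-I-PpoI and at 216, 232 and 259 CPM in wild type. PT-I-PpoI replicate 3 lay in the wild type range and the other two well below it. The log2 fold change was -0.33 ± 0.18 (95% interval -0.75 to 0.09; edgeR adjusted p = 0.485), at -0.48 without a hyphen and 0.04 with one.

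Slc7a7 (chromosome 14, 54369442 to 54417702, minus strand) encodes y+LAT1, which releases dibasic amino acids in exchange for neutral ones and sodium. It was at 197, 189.5 and 239 CPM in PT-I-PpoI and 207, 235 and 252 CPM in wild type, with overlap through PT-I-PpoI replicate 3. The fitted difference was -0.15 ± 0.12 on the log2 scale (95% interval -0.41 to 0.11; edgeR adjusted p = 0.607), and -0.10 and -0.03 within the forms. Its exons overlap those of Oxa1l on the other strand.

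Slc3a2 (chromosome 19, 8706882 to 8723369, minus strand) encodes 4F2hc (CD98), the heavy subunit shared by LAT2, y+LAT1 and carriers of many other cell types. It was at 286, 306 and 347 CPM in PT-I-PpoI and at 295, 297 and 351 CPM in wild type, ranges that nearly coincide. The log2 fold change was -0.01 ± 0.11 (95% interval -0.25 to 0.24; edgeR adjusted p = 0.987). Within the forms it was 0.00 without a hyphen and 0.10 with one, and its sign turned with upper-quartile factors (0.01) and with a term for the name form (0.05).

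**Figure D2:**
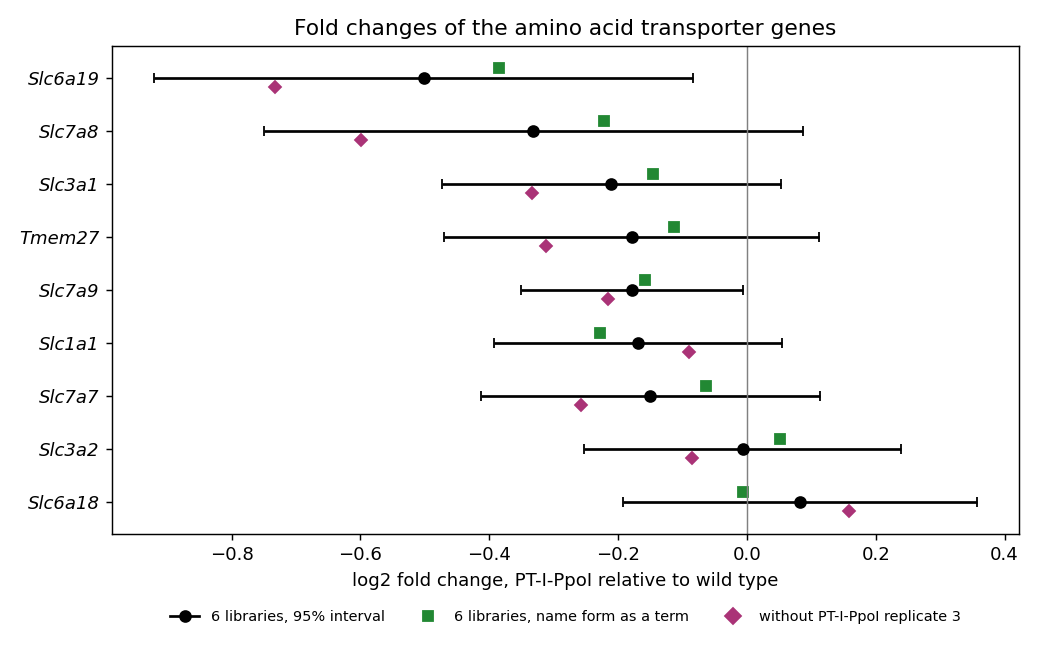
Log2 fold changes of the 9 genes, PT-I-PpoI relative to wild type (horizontal axis); black points and bars are edgeR estimates from 6 libraries with 95% intervals, green squares the fit with the library name form as a term, and purple diamonds the fit without PT-I-PpoI replicate 3. The diamonds of Slc6a19 (-0.73) and Slc7a8 (-0.60) lie farthest from 0.

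PT-I-PpoI replicate 3 decided which of these genes passed. Without it, edgeR called 2 of the 9 genes lower, where 2.56% of 14219 tested genes were called lower, and 0 of the 9 higher, against 1.84%. These were Slc6a19 (log2 fold change -0.73 ± 0.13, edgeR adjusted p = 0.0302) and Slc7a8 (-0.60 ± 0.10, edgeR adjusted p = 0.0228). The median of the 9 genes was then -0.26. Replicate 3 is the only PT-I-PpoI library with a hyphen, so that fit set PT-I-PpoI libraries without one against wild type libraries of both forms. Group and name form are then partly mixed, and both called genes were also higher in every library with a hyphen. Those calls cannot be told apart from a difference between the forms. In all 6 libraries, with a term for the name form, 0 of the 9 passed, where 0.107% of tested genes were called lower and 0.351% higher. The values were -0.38 ± 0.12 for Slc6a19 (edgeR adjusted p = 0.215) and -0.22 ± 0.11 for Slc7a8 (edgeR adjusted p = 0.445).

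The name forms themselves separated more of the genes than the groups did. Slc3a1, Slc7a7, Slc7a8, Slc6a19 and Tmem27 were higher in every library with a hyphen than in every library without one (5 of 9, against 12.3% of all tested genes), and Slc6a18 was lower in each (1 of 9, against 13.1%). Within PT-I-PpoI, Slc7a8 differed most between the forms, by 0.69 on the log2 scale, and within wild type Slc6a18 did, by -0.32. Libraries with a hyphen include 2 of 3 wild type libraries and 1 of 3 PT-I-PpoI libraries.

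Compared per length in wild type, the order of levels in TPM (counts per exon length, scaled to the same total in each library) began with Tmem27 (2447 ± 114 TPM, SD, n = 3), followed by Slc3a1 (397 ± 9.98), Slc6a18 (269.9 ± 40.4), Slc6a19 (208 ± 16.2), Slc3a2 (193 ± 17.6), Slc7a9 (176 ± 4.69), Slc1a1 (175 ± 9.26), Slc7a7 (167 ± 13.8) and Slc7a8 (106 ± 8.17). Ranges of neighbours overlapped between Slc6a19 and Slc3a2, between Slc7a9 and Slc1a1 and between Slc1a1 and Slc7a7, and did not overlap between the other neighbours. In PT-I-PpoI, Tmem27 again came first (2216 ± 305 TPM) and Slc7a8 last (86.2 ± 23.1 TPM), while Slc6a19 stood eighth by its mean, at 151 ± 39.4 TPM. Its range, from 112 to 191 TPM, overlapped those of Slc3a2, Slc1a1, Slc7a9, Slc7a7 and Slc7a8, so its place among them is not settled. The transcript of the accessory protein collectrin was thus more abundant per length than that of any of the carriers in both groups.

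Ratios between partner genes within a library do not depend on library size. They can depend on the mix of cells in the tissue, whose part was not tested. For the apical cystine carrier, Slc7a9 had 46.7, 49.4 and 40.8 reads per kilobase for every 100 of Slc3a1 in PT-I-PpoI and 45.9, 45.2 and 41.7 in wild type. This ratio overlapped between the groups, with a log2 difference of 0.04 ± 0.09 (SE; exact permutation p = 0.7, two-sided, n = 3 each), at 0.065 without a hyphen and -0.089 with one. The smallest p that 3 against 3 libraries allow is 0.1, so no ratio could pass.

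**Figure D3:**
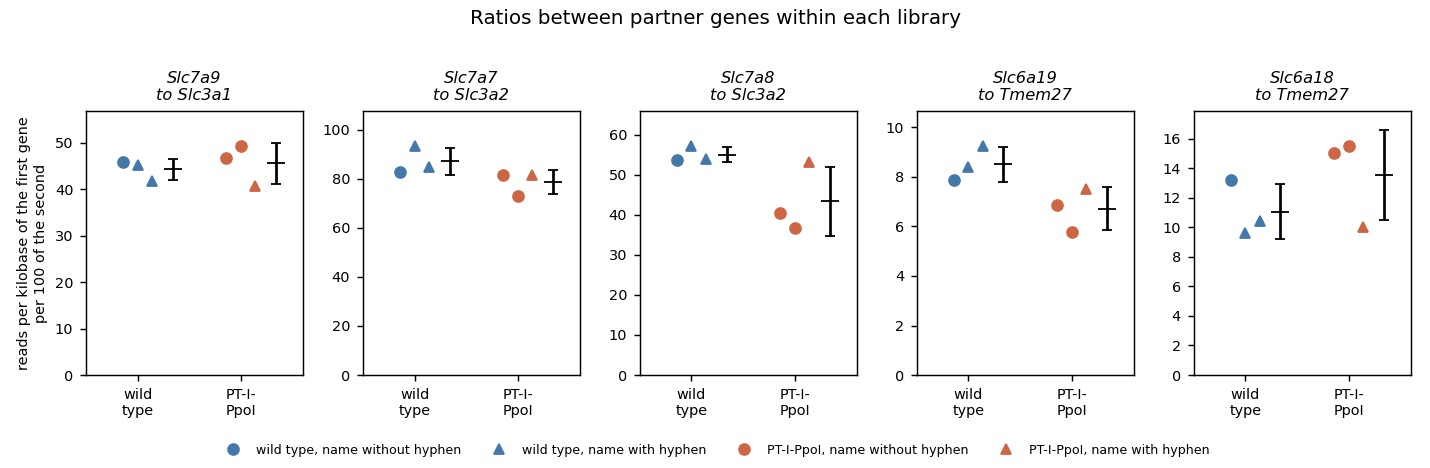
Reads per kilobase of the first gene for every 100 of the second (vertical axes, each from 0) for 5 pairs of partner genes, in each library; symbols as in the plot of levels, with mean and SD (n = 3). The groups do not overlap for Slc7a7 to Slc3a2, Slc7a8 to Slc3a2 and Slc6a19 to Tmem27. The Slc7a7 and Slc7a8 ratios share the denominator Slc3a2. Groups that do not overlap give the smallest exact permutation p, 0.1. Among single tested genes, 7.74% were lower in CPM in every PT-I-PpoI library, and the share among ratios of other gene pairs was not computed.

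Slc6a19 had 6.88, 5.78 and 7.50 reads per kilobase for every 100 of Tmem27 in PT-I-PpoI and 7.89, 8.39 and 9.27 in wild type. All PT-I-PpoI libraries lay below all wild type libraries, PT-I-PpoI replicate 3 included. The log2 difference was -0.35 ± 0.13 (exact permutation p = 0.1, adjusted p = 0.167 over 5 ratios), at -0.32 and -0.23 within the forms. Slc6a18 to Tmem27 overlapped between the groups, with a log2 difference of 0.28 ± 0.24 (exact permutation p = 0.3), or 0.21 and 0.00 within the forms.

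On the basolateral side, Slc7a8 had 40.4, 36.7 and 53.1 reads per kilobase for every 100 of Slc3a2 in PT-I-PpoI and 53.7, 57.3 and 54.1 in wild type. The groups did not overlap, but PT-I-PpoI replicate 3 missed the wild type range by little. The log2 difference was -0.36 ± 0.16 (exact permutation p = 0.1, adjusted p = 0.167), and -0.48 and -0.07 within the forms. Slc7a7 to Slc3a2 was at 81.5, 73.1 and 81.4 in PT-I-PpoI and 82.8, 93.5 and 84.8 in wild type, also without overlap, with a log2 difference of -0.15 ± 0.07 (exact permutation p = 0.1, adjusted p = 0.167), and -0.10 and -0.13 within the forms.

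Other carriers of amino acids and small peptides showed no common direction. Of 36 listed genes 33 were tested, of which 0 passed by edgeR in either direction, 15 had fold changes above 0 and 18 below. Unadjusted edgeR p-values under 0.05 were found for 4 higher and 5 lower genes of the 33, against 6.42% and 5.61% of all tested genes. Their median log2 fold change was -0.08, and it changed sign between the forms (-0.10 without a hyphen, 0.049 with one). Slc7a13, which encodes the apical light subunit AGT1 that also pairs with rBAT in the straight segment, was at 452, 470.3 and 587 CPM in PT-I-PpoI and 603, 720.4 and 777 CPM in wild type. Its groups did not overlap, and the log2 fold change was -0.48 ± 0.14 (edgeR adjusted p = 0.258). Slc6a12, a carrier of betaine and GABA that medullary cells use for osmolyte uptake, had means of 1.78 ± 0.70 CPM in wild type and 4.52 ± 1.56 CPM in PT-I-PpoI, which differ by 1.37 ± 0.34 on the log2 scale (edgeR adjusted p = 0.21). Slc38a2, a sodium-coupled carrier of small neutral amino acids, was at 63.8 ± 9.78 against 46.7 ± 4.03 CPM (0.45 ± 0.12, edgeR adjusted p = 0.228).

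Among 14 brush border peptidases, scaffolds and transcription factors of these carriers, 11 had fold changes below 0 and 0 passed, with a median log2 fold change of -0.23 (-0.12 and -0.14 within the forms). The scaffold gene Slc9a3r1 (NHERF1) was at 286 ± 51.3 against 392 ± 57.6 CPM. Ggt1, the gamma-glutamyltransferase of the brush border, was at 1088 ± 219.9 against 1523 ± 325 CPM. Slc9a3r2 (NHERF2), another scaffold gene, lay on the other side, with 68.6 ± 3.56 CPM in wild type and 90.3 ± 4.73 CPM in PT-I-PpoI, which differ by 0.40 ± 0.08 on the log2 scale (edgeR adjusted p = 0.146).

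Of 31 tested genes of renal amino acid metabolism, 23 had fold changes below 0 and 0 passed, with a median log2 fold change of -0.17 (-0.14 without a hyphen, -0.041 with one). Arg2, the mitochondrial arginase, had 7.97 ± 2.05 CPM in wild type and 17.3 ± 2.05 CPM in PT-I-PpoI, which differ by 1.10 ± 0.18 on the log2 scale (edgeR adjusted p = 0.0757). Kmo, an enzyme of tryptophan breakdown, was at 149 ± 28.0 against 202 ± 13.8 CPM, and Dao, the D-amino acid oxidase, at 388 ± 28.6 against 473 ± 28.0 CPM, both without overlap. Genes of the amino acid response, which the factor ATF4 drives when amino acids run short and which include Slc3a2 among known targets in other cells, had a median of 0.04 over 18 genes (0.046 and 0.11 within the forms), and 0 passed. Nupr1, a stress-response gene, was at 15.2 ± 2.19 against 9.95 ± 1.39 CPM, Ddit3 (CHOP) at 14.7 ± 1.38 against 11.3 ± 0.86 CPM, and Sesn2 at 50.1 ± 0.45 against 74.2 ± 25.1 CPM.

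**Figure D4:**
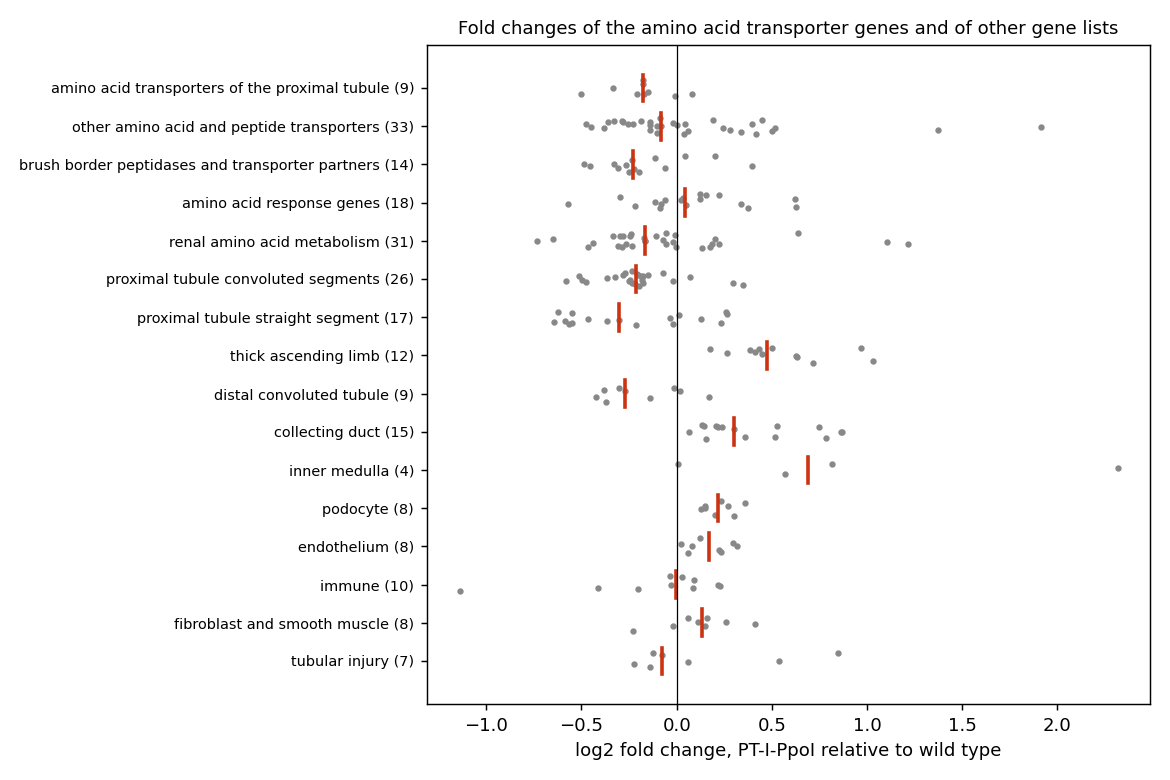
Log2 fold changes (horizontal axis, PT-I-PpoI relative to wild type) of the tested genes of each list, with the number tested in brackets; grey points are genes and red bars the list medians. The amino acid transporters (median -0.18) lie beside the convoluted proximal tubule list (-0.21), while the thick ascending limb list lies above 0 (0.48).

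Most markers of the proximal tubule at large lay on the same side of 0 as most of its amino acid transporters. Of the 26 convoluted genes 23 had fold changes below 0 and 3 above, and of the 17 straight segment genes 12 and 5. The median was -0.21 over the 26 genes of the convoluted segments and -0.30 over the 17 of the straight segment, with 0 of either list passing. Within the forms the convoluted median was -0.17 without a hyphen and -0.14 with one, while the straight segment median was -0.32 and -0.090. Against the convoluted median, Slc3a1, Slc7a9, Tmem27, Slc1a1 and Slc7a7 differed by 0.00 to 0.06 on the log2 scale. Slc6a19 lay 0.29 and Slc7a8 0.12 below it, and Slc3a2 and Slc6a18 lay 0.21 and 0.30 above it. The convoluted list summed to between 25301 and 31559 CPM in wild type and between 21321 and 26816 CPM in PT-I-PpoI, and of its genes Slc26a1, a sulfate carrier, was at 102 ± 24.6 against 152 ± 19.3 CPM. In the straight segment list, where 5 of 17 genes lay above 0, Slc22a30 was at 97.2 ± 18.7 against 146 ± 8.86 CPM. PT-I-PpoI replicate 3 summed to 26816 CPM for the convoluted list, above the 22202 and 21321 CPM of replicates 1 and 2.

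Markers of the thick ascending limb, collecting duct and inner medulla lay on the other side. All 12 thick ascending limb genes lay above 0, 2 of them passing (Ptger3 and Tmem207), and they summed to 8261 to 8630 CPM in PT-I-PpoI against 5914 to 6689 CPM in wild type. All 15 collecting duct genes lay above 0, 2 of them passing (Avpr2 and Aqp4), with sums of 1405 to 1469 against 1026 to 1111 CPM. Of 5 inner medulla genes 4 were tested, and the sums were 318 to 364 against 133 to 209 CPM. Akr1b3 had 0 counts in all libraries, as did Ren1 of the fibroblast and smooth muscle list. Whether the counting or the tissue accounts for these zeros was not tested. The medians of these 3 lists were above 0 within both forms, at 0.51 without a hyphen and 0.41 with one for the thick ascending limb, 0.32 and 0.31 for the collecting duct, and 0.88 and 0.71 for the inner medulla. The part of tissue composition in the levels of the transporters was not tested. When library sizes were instead taken from the sum of both proximal tubule lists, the median of all genes moved to 0.30 and that of the 9 transporters to 0.12, and 0 of the 9 passed. On that scale Slc6a19 was at -0.22 and Slc7a8 at -0.055, and the 7 others lay above 0.

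Over the 6 libraries, the tested genes whose centred levels were most like the mean profile of the 9 transporters were Ptprk, a receptor tyrosine phosphatase, Celf1, an RNA-binding protein, and Acat1, a mitochondrial thiolase, with root mean square differences of 0.013, 0.016 and 0.019 on the log2 scale. Their log2 fold changes were -0.18 ± 0.09, -0.17 ± 0.09 and -0.17 ± 0.10, and none passed. Because these genes were picked for likeness over the same libraries, fold changes near those of the transporters follow from the choice.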

How the data were processed

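Per the labels' protocols, libraries came from a stranded TruSeq mRNA kit, were sequenced in paired ends of 100 cycles (NovaSeq 6000) and were aligned by HISAT2. The authors deposited raw counts of read pairs per gene. Per the file headers, featureCounts 1.5.2 counted pairs with both mates mapped over exons, with no strand option. Read pairs that overlap exons of several genes were given to none under those options. The header names mm10 and the labels mm9. For 5 of 8 transporter genes the start in the count table is that of a RefSeq window on GRCm38.p6 (mm10), the build used here. The authors also deposited log2 values on the rlog scale, used only in an alternative test.

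Counts were tested in R 4.3.3 with edgeR 4.0.16 (expression filter with a minimum count of 10, TMM factors, quasi-likelihood test, two-sided, group only, Benjamini-Hochberg over 13977 genes, threshold 0.05). SE is the log2 fold change over the root of its F statistic, and the 95% intervals use the fit's degrees of freedom. CPM use TMM-adjusted totals; log2 CPM use a prior count of 2. The procedure was tested on simulated data of this comparison's 13977 genes, where it recovered 42% of 1.5-fold and 78.4% of 2-fold changes, and 7.33% of its calls were false. The simulated libraries held no difference between the name forms, so these shares may not hold for the real libraries. Alternatives were DESeq2 1.42.0, limma 3.58.1 (voom, and rlog values), other size factors and filters, the replicate number as a block, the name form as a term, and leaving out each library.

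The transporter genes and gene lists were chosen with earlier results of these data known. Named from the other lists were up to 3 genes with the smallest p and any that passed, of which 1 is not reported here; others are said to be chosen later. From the podocyte, endothelium, immune, fibroblast and smooth muscle, distal convoluted tubule and tubular injury lists, 0 genes passed, and their median log2 fold changes were 0.22, 0.17, 0.00, 0.13, -0.27 and -0.08. These medians were 0.12, 0.054, -0.24, 0.026, -0.45 and -0.12 within libraries whose names lack a hyphen and 0.31, 0.27, 0.17, 0.0025, 0.11 and 0.27 within those with one, so the sign of the immune, distal convoluted tubule and tubular injury medians depends on the name form.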

Additional observations from a re-analysis of the deposited data

How the results depend on the processing

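The count of transporter genes called was 0 higher and 0 lower under every alternative except leaving out PT-I-PpoI replicate 3, which gave 2 lower. That fit holds no PT-I-PpoI library with a hyphen. When each library was left out, the lower calls among the 9 genes ran from 0 to 2, the calls over all genes from 0 to 261 higher and 0 to 364 lower, and the median of the 9 from -0.26 to -0.13. Over all genes, edgeR's 19 higher and 0 lower became 44 and 3 with no filter, 133 and 61 by DESeq2, and 49 and 15 when the fit held the name form; limma on the rlog values gave 1 higher. Leaving out PT-I-PpoI replicate 1 or 2 or wild type replicate 3 each gave 0 higher, wild type replicate 1 gave 2 and wild type replicate 2 gave 9. The cause was not tested.

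Library sizes from the summed proximal tubule lists gave 102 higher genes and a median of 0.12 for the 9, and the signs of Slc3a1 (0.077), Slc3a2 (0.29), Slc7a7 (0.15), Slc7a9 (0.12), Slc1a1 (0.14) and Tmem27 (0.11) turned, while the median of all genes moved to 0.30. Median-of-ratios factors from the same lists, chosen after seeing the data, gave 71 higher genes, a median of 0.064 for the 9 against 0.25 for all genes, and values of 0.025, 0.24, 0.091, 0.064, 0.086 and 0.054 for the same 6 genes in that order. Split by name form, the median of the 9 was -0.016 with a hyphen and -0.21 otherwise. Relative to proximal tubule markers, the median of the 9 lay 0.04 above the convoluted list and 0.13 above the straight segment list.

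Slc3a2 also turned sign with upper-quartile factors (0.012) and when the fit held the name form (0.051), which turned Slc6a18 as well (-0.0053). Leaving out single libraries gave Slc3a2 values from -0.086 to 0.080, above 0 when wild type replicate 3 or either PT-I-PpoI library without a hyphen was left out. The ratio of Slc7a9 to Slc3a1 turned within libraries with a hyphen (-0.089), on leaving out PT-I-PpoI replicate 2 (-0.019) and on leaving out wild type replicate 3 (-0.0017). Whether the replicate numbers pair the libraries is not settled, as correlations over 3 libraries per group cannot decide it. Deviations from the group means correlated at 0.22, -0.13 and 0.16 for numbers 1, 2 and 3. The value for number 1 was the highest of all pairings, while PT-I-PpoI replicate 2 correlated best with wild type replicate 1. With the replicate block, 33 genes were called higher and 7 lower, 0 of them among the 9. With 3 libraries per group, differences of the size seen for most of the 9 genes are below what the test often recovered in simulated data without name forms.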

Other observations

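Slc7a12, an Slc7 family member on the list of other carriers that the rule for named genes did not take, was chosen after its values were seen. It was at 22, 30.6 and 2.06 CPM in PT-I-PpoI and 10.3, 0.83 and 2.84 CPM in wild type. All 3 libraries without a hyphen lay above all 3 with one, and the groups overlapped (log2 fold change 1.91 ± 0.88).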
